A study of Arabidopsis thaliana with 4 samples.

Results

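UF3GT (AT5G54060) and CHIL (AT5G05270) are the 2 genes described here, each carried by 1 probe that the platform annotation gives to that gene alone. They were picked by symbol out of 5443 genes with a probe of their own, on an array of 26474 probes, as a late and an early member of the flavonoid pathway. Inflorescences of the agamous mutant and of wild-type Arabidopsis thaliana were compared on 4 arrays (sets 1 to 4), each hybridised with both total RNAs in 2 colours. The labels place agamous RNA in channel 1 and wild-type RNA in channel 2 on arrays 1 and 3, and the reverse on arrays 2 and 4. The agamous allele, the wild-type strain and the age of the plants are not given in the sources used here. AGAMOUS specifies stamens and carpels. Mutant flowers repeat sepals and petals instead, so the RNAs come from flowers of different organ make-up. In whole inflorescences, fewer cells of a type and less RNA per cell cannot be told apart. Nothing says that the 4 sets were separate plants, so the p-values cover only array-to-array spread, which may be technical.

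Flavonoids are plant phenolics that include the flavonols and the anthocyanin pigments. Chalcone synthase and chalcone isomerase build the flavonoid skeleton, later enzymes oxidise and reduce it, and glycosyltransferases and acyltransferases then decorate it with sugars and acids. In Arabidopsis flowers, flavonols accumulate in petals, anthers and pollen. CHIL has the fold of a chalcone isomerase but is not itself a working isomerase. It binds chalcone synthase and raises flavonoid output at the entry of the pathway. UF3GT is UGT79B1, a UDP-glycosyltransferase named in the reference as a flavonoid 3-O-glucosyltransferase, which is known to add xylose to the 3-O-glucoside of anthocyanins. It thus acts at the decoration end.

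Each value is a log2 ratio of one channel to the other, with no level for either RNA. For UF3GT the deposited ratios of arrays 1 to 4 were -2.50, 3.07, 4.03 and -2.41. Arrays 1 and 4 were thus negative and arrays 2 and 3 positive, and the sizes correspond to 5.64-fold, 8.42-fold, 16.3-fold and 5.31-fold differences between channels. For CHIL they were 0.60, -1.14, -0.34 and 0.99, in the same order. Its signs were the mirror image of those of UF3GT on every array, at sizes of 1.52-fold, 2.21-fold, 1.27-fold and 1.99-fold. No value of either gene lay at the bounds of the deposited values, plus and minus 6.64.

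**Figure D1:**
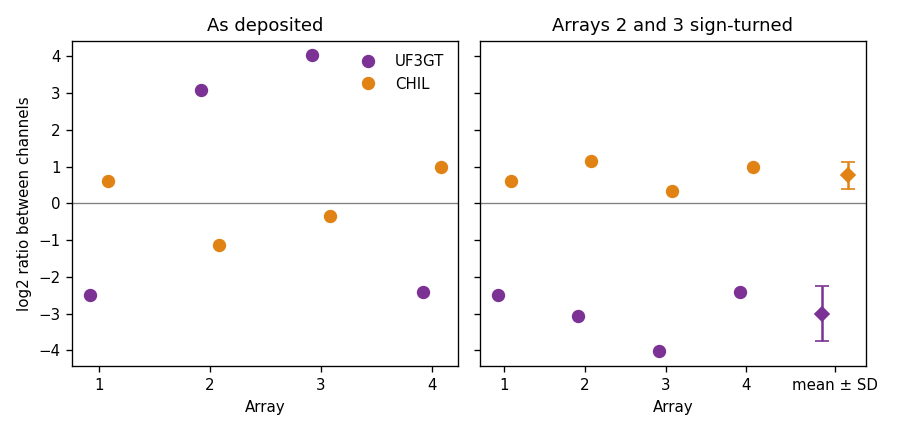
Log2 ratio between channels (vertical axis) on each array (horizontal axis) for UF3GT and CHIL, as deposited on the left and with arrays 2 and 3 sign-turned on the right, where diamonds and bars give the mean and SD of 4 arrays. As deposited each gene changes sign between array pairs, and once turned UF3GT lies between -4.03 and -2.41 and CHIL between 0.34 and 1.14.

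The direction of the ratios is not settled, because the signs followed neither a common direction nor the channel labels. Over probes within the bounds, arrays 1 and 3 correlated with Pearson's r = -0.66 and arrays 2 and 4 with -0.71, although the labels give each of these pairs 1 channel order. Arrays 1 and 4 had r = 0.70, and arrays 2 and 3 had r = 0.77. With values at the bounds kept, r was -0.08 for arrays 1 and 3 and -0.45 for arrays 2 and 4. It was then 0.60 for arrays 1 and 4 and 0.49 for arrays 2 and 3. UF3GT averaged -2.45 over arrays 1 and 4 and 3.55 over arrays 2 and 3, and CHIL averaged 0.80 and -0.74. Each gene thus took opposite signs on the 2 pairs of arrays. Turning the sign of arrays 2 and 3 gives each gene 1 sign. This reading, which rests on the same correlations, is called likely agamous over wild type, because anther genes are then the lower ones and agamous flowers lack stamens. Turning by the labels would give this same reading if the channel order labelled for arrays 3 and 4 were exchanged, which was not tested. With arrays 1 and 4 turned in place of arrays 2 and 3, every sign below is reversed, so that UF3GT averages 3.0 and CHIL -0.77.

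**Figure D2:**
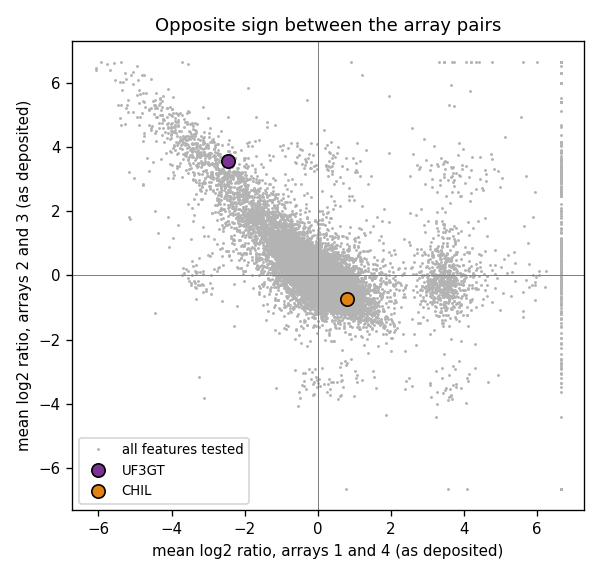
Each point is 1 of the 26100 features tested, with its mean deposited log2 ratio on arrays 1 and 4 (horizontal axis) against that on arrays 2 and 3 (vertical axis). UF3GT (-2.45, 3.55) and CHIL (0.80, -0.74) lie in opposite quadrants, on either side of 0 on both axes.

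UF3GT fell and CHIL rose past the test with arrays 2 and 3 turned. The turning was chosen from these same ratios, and the p-values do not allow for that choice. In that reading the log2 ratio of UF3GT averaged -3.00 ± 0.75 (SD, n = 4) and was lower on 4 of 4 arrays. This is an 8.01-fold difference, with a 95% interval of 4.56 to 14.1-fold (adjusted p = 0.00735, limma, over 26100 features). CHIL averaged 0.77 ± 0.36 (SD, n = 4) and was higher on 4 of 4 arrays, a 1.71-fold difference with an interval of 1.25 to 2.32-fold (adjusted p = 0.0452, limma). Among all features 17.4% were called in either direction, with 9.16% lower and 8.23% higher, while 16.3% were negative and 30.7% positive on all 4 arrays. After each array was centred on its median, 887 features were called higher and 2670 lower, against 2147 higher and 2392 lower before.

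The call for CHIL lay close to the threshold and depended on the scaling. The median feature had a mean of 0.15 in this reading, and centring each array on its own median moved it by -0.14. After centring, CHIL averaged 0.64 (adjusted p = 0.0767, limma) and no longer passed, whereas UF3GT averaged -3.14 (adjusted p = 0.00549). CHIL kept a positive mean but lost its call without any 1 of the 4 arrays, with adjusted p from 0.0622 to 0.155. UF3GT lost its call without array 2 (mean -2.98, adjusted p = 0.0545) and kept it without array 1, 3 or 4 (adjusted p from 0.0111 to 0.0279).

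**Figure D3:**
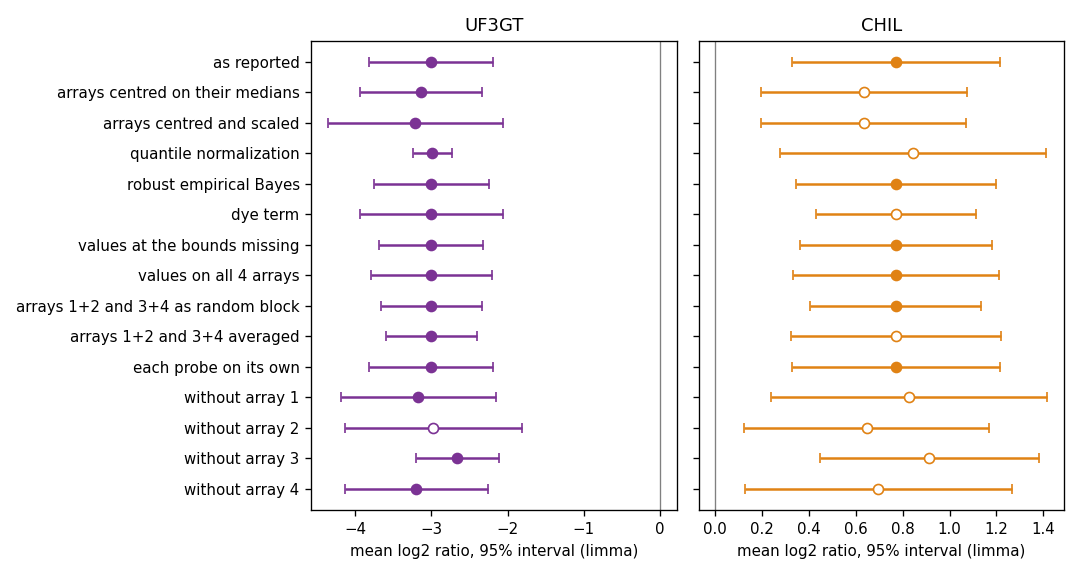
Mean log2 ratio with arrays 2 and 3 turned and its 95% interval from limma (horizontal axes, which differ in scale) for UF3GT and CHIL under the reported fit and 14 alternatives (rows); filled points have an adjusted p under 0.05. UF3GT stays between -3.21 and -2.66 and passes in 13 of 14 alternatives, and CHIL stays between 0.63 and 0.91 and passes in 5 of 14.

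The position of each gene on single arrays differed in steadiness. On arrays 1 and 4, 97.4% and 97.2% of features had a higher deposited ratio than UF3GT. On arrays 2 and 3, 97.5% and 97.4% had a lower one. UF3GT thus stood about equally far out on every array, although its ratio was larger on array 3 than elsewhere. CHIL ranged more widely. On arrays 1 and 4, 78.3% and 93.0% of features had a lower ratio than CHIL, and on arrays 2 and 3, 96.0% and 71.5% had a higher one. Relative to the median of each array, CHIL stood at 0.44, -1.01, -0.23 and 0.86, so that arrays 2 and 4 carried most of its difference.

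By mean ratio with arrays 2 and 3 turned, UF3GT was the 92nd lowest and CHIL the 488th highest of 5434 tested genes with a probe of their own. At least as low as the smallest UF3GT size on every array were 442 of 25818 features with 4 values (1.71%), UF3GT included. At least as high as the smallest CHIL size on every array were 1984 of them (7.68%), CHIL included.

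The late and the early gene were set against each other within each array. UF3GT minus CHIL, with arrays 2 and 3 turned, was -3.10, -4.22, -4.37 and -3.40 on arrays 1 to 4. The ratio of UF3GT was below that of CHIL on all 4 arrays, with a mean difference of -3.77 ± 0.62 (SD, n = 4). An exact sign-flip permutation test over arrays gave p = 0.13, two-sided, which is the smallest p that 4 arrays allow. Turning had already given each gene the same sign on every array, opposite between the genes, so all 4 differences had to be negative. The test could thus give no other p, and nothing is concluded from it. The difference is unaffected by centring, as both genes shift together.

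As deposited, neither gene passed. UF3GT averaged 0.55 (95% interval -3.26 to 4.36, unadjusted p = 0.719, limma) and CHIL 0.03 (interval -1.07 to 1.12, unadjusted p = 0.949), and the adjusted p was 1.0 for both. In this reading 0.226% of features were called, all of them higher. Turned by the labels, with the sign of arrays 2 and 4 reversed, UF3GT averaged 0.22 (interval -3.57 to 4.01) and CHIL 0.10 (interval -0.98 to 1.18), with an adjusted p of 1.0 for both by limma. No feature passed there (0%), and 191 had an unadjusted p under 0.05. In both readings the arrays cancelled, and the intervals for UF3GT include differences as large as that of the turned reading.

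A second probe, A023057_01, is listed for UF3GT together with AT5G54010. The reference names AT5G54010 UGT79B6, which is also on the pollen list used below. Because the probe lists both genes, its signal cannot be assigned to either. Its deposited ratios were -2.21, 3.15, 3.70 and -2.41 on arrays 1 to 4. They differed from those of the UF3GT probe by at most 0.32 on any array. With arrays 2 and 3 turned the mean was -2.87 ± 0.69 (SD, n = 4), a 7.30-fold difference (adjusted p = 0.00689, limma). Another probe, A025199_01, is listed for AT5G54010 and 2 further loci but not for UF3GT. It read 0.28, 0.89, 2.33 and 6.64 as deposited, the last at the bound. It thus had the sign of the UF3GT probe and of A023057_01 on arrays 2 and 3, and the opposite sign on arrays 1 and 4.

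The pathway around the 2 genes was measured thinly. Of 49 genes on lists of early steps, late steps, decoration, transport and regulators of flavonoid synthesis, 5 had a probe of their own. Of these, 1 fell and 1 rose, the 2 genes described above, on which this report was built. Without them, 0 of 3 were called lower and 0 higher. Among all features 9.16% were called lower and 8.23% higher. The median of the 5 means was 0.39, against 0.15 over all features tested. No gene of the late steps, transport or regulators was measured alone, nor was any of the 14 listed genes of the general phenylpropanoid pathway, and CHIL was the only early step.

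Of the 3 other decoration genes, 0 passed limma's test and 1 had an unadjusted p under 0.05, as did 9549 of all 26100 features. This gene was UGT78D1, which adds rhamnose to flavonols at the 3 position. With arrays 2 and 3 turned its ratios were 0.77, 0.46, 0.06 and 0.69 on arrays 1 to 4, with a mean of 0.50 ± 0.32 (SD, n = 4, adjusted p = 0.0927). All 4 were positive, as were those of 30.7% of all features, but on array 3 the ratio was nearer 0 than the array's own median (-0.11 as deposited). AT5MAT, the anthocyanin malonyltransferase that acylates the 5-O-glucoside, had -0.11, -1.51, -0.34 and 0.48 and a mean of -0.37 ± 0.84 (adjusted p = 0.476). AT1G06000 had 0.81, 0.08, -0.03 and 0.68 and a mean of 0.39 ± 0.42 (adjusted p = 0.213). UF3GT was lower than each of these 3 genes on every array, with no overlap between its range and theirs. On single arrays, 97.2% to 97.5% of all features stood above UF3GT with arrays 2 and 3 turned. Standing above it is thus not particular to these genes.

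Probes shared by several genes cover more of the pathway without naming a gene. With arrays 2 and 3 turned, 3 of 8 such probes that list a flavonoid gene were lower past limma's test and 0 were higher. Among all features 9.16% were called lower and 8.23% higher. At an unadjusted p under 0.05, 5 of the 8 were lower and 2 higher. In either direction, 9549 of all 26100 features had such an unadjusted p. Beside A023057_01, the probes lower past the adjusted test were A000476_01 and A015143_01. A000476_01, listed for BAN and AT1G30260, had a mean of -2.11 ± 0.44 (adjusted p = 0.00538). A015143_01, listed for AT4G14090 and AT5MAT, had -1.19 ± 0.61 (SD, n = 4 each, adjusted p = 0.0449). The 2 probes listed for IAGLU and AT4G14090 did not pass and had opposite signs, A012888_01 with -0.49 ± 0.37 (adjusted p = 0.114) and A024776_01 with 0.38 ± 0.29 (adjusted p = 0.137). BAN is the anthocyanidin reductase of proanthocyanidin synthesis. A000424_01, listed for AT1G03495 and AT1G03940, had -1.04 ± 0.59 (adjusted p = 0.0548). Neither probe shared among UGT78D genes passed, A025243_01 with a mean of 0.97 ± 0.64 (adjusted p = 0.0729) and A025245_01 with 0.32 ± 0.19 (adjusted p = 0.122). After quantile normalization 2 of the 8 were called lower, beside 2151 of all 26100 features. After centring 4 of the 8 were, beside 2670 of all features.

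**Figure D4:**
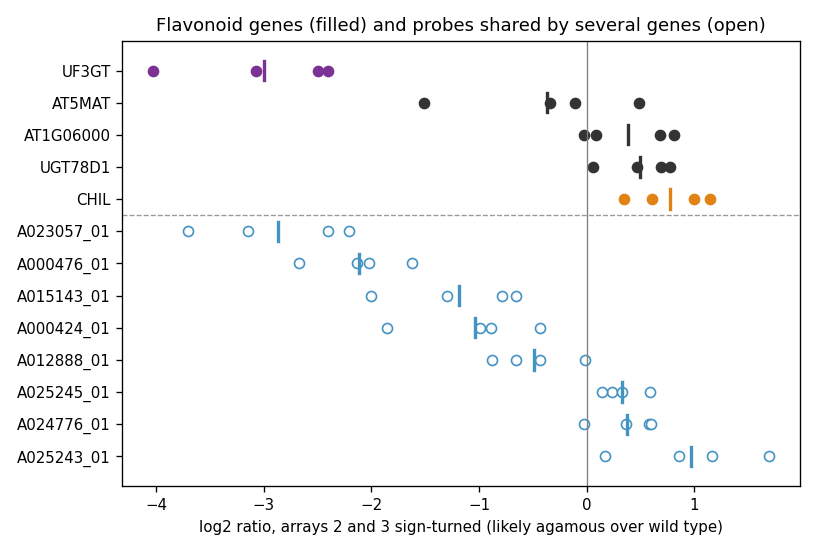
Log2 ratios with arrays 2 and 3 turned (horizontal axis) on the 4 arrays for the 5 flavonoid genes with a probe of their own (filled, above the dashed line) and the 8 probes shared by several genes (open, below it); vertical ticks are means. UF3GT and the shared probe A023057_01 lie lowest.

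UF3GT belongs to the UDP-glycosyltransferases, enzymes that move sugars onto small molecules. Of 20 genes named as such in the reference and measured alone, 2 fell and 4 rose with arrays 2 and 3 turned, beside 9.16% called lower and 8.23% called higher among all features. The median of their means was 0.27, against 0.15 over all features. The genes were gathered by name after the values had been seen. UF3GT had the lowest mean of the 20. UGT84A1, which esterifies hydroxycinnamic acids with glucose, came next with -2.12, -2.32, -1.09 and 0.70 and did not pass (adjusted p = 0.194). UGT73B1 followed with -1.10, -1.23, -0.66 and -0.70, a mean of -0.92 ± 0.29 (SD, n = 4, adjusted p = 0.0219). The ranges of UF3GT and UGT73B1 did not overlap, whereas those of UGT84A1 and UGT73B1 did. On single arrays, 97.2% to 97.5% of all features stood above UF3GT in the same reading. At the other end, UGT73C1 averaged 1.17 ± 0.27 (adjusted p = 0.0110), and UGT74B1, the glucosyltransferase of glucosinolate synthesis, averaged 0.78 ± 0.33 (adjusted p = 0.0378). After centring 2 of the 20 were lower and 2 higher, beside 2670 lower and 887 higher of all 26100 features. UGT74B1 then no longer passed (adjusted p = 0.0584). Quantile normalization took UGT73C1 to 2.06 and ended its call (adjusted p = 0.0751).

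**Figure D5:**
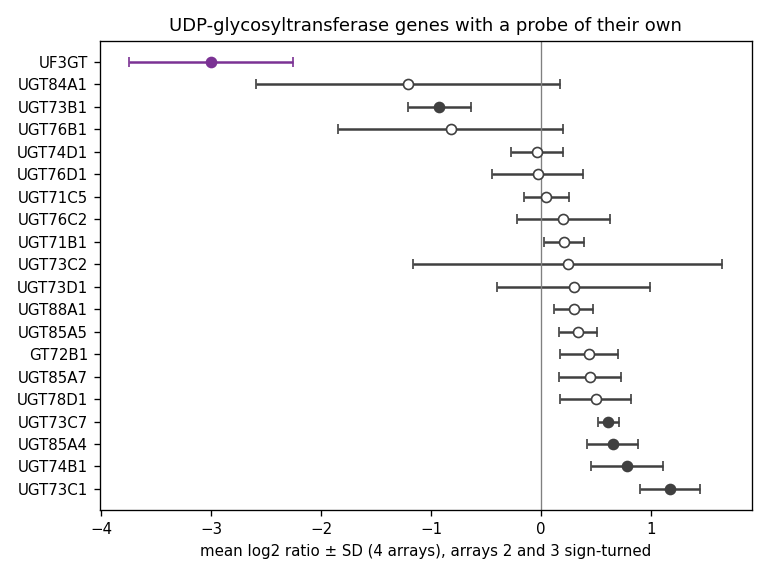
Mean log2 ratio with arrays 2 and 3 turned, with SD bars over 4 arrays (horizontal axis), for 20 UDP-glycosyltransferase genes with a probe of their own (rows); filled points have an adjusted p under 0.05. UF3GT at -3.00 is the lowest, and UGT73C1 at 1.17 is the highest.

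Genes of the CHIL fold and of the UGT79 group gave few further values. Of the 6 listed genes of the chalcone isomerase fold, CHIL alone had its own probe. A probe shared by AT5G66220 of that list and AT5G66230 averaged -0.06 ± 0.43 (SD, n = 4, adjusted p = 0.833, limma). Of the 4 listed UGT79 genes, UF3GT alone had its own probe. The 2 probes listed for both AT4G27560 and AT4G27570 disagreed, with means of 1.36 ± 0.61 (adjusted p = 0.0341) and -0.03 ± 0.53 (adjusted p = 0.945). Of the 4 protein-coding neighbours on either side of each gene, AT5G05300 near CHIL was the only one measured alone, with a mean of 0.28 (adjusted p = 0.243).

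Most of the floral organ markers with a probe of their own were lower in the reading in which UF3GT was lower, where 9.16% of all features were called lower. Probes shared by several genes that list such markers are not counted here. Their means ran from -4.33 (A014258_01, adjusted p = 0.00259, limma) to 0.93 (A025199_01, adjusted p = 0.698). Among those with a positive mean, A008717_01, which lists INO, had 0.70 (adjusted p = 0.0627). A018767_01, which lists SHT, had 0.39 (adjusted p = 0.104), and neither passed. With arrays 2 and 3 turned, 3 of 4 measured genes of the tapetum and anther list fell (of 20 listed), and the median of the list was -2.09. ATA20, an anther gene, averaged -2.83 ± 0.24 (adjusted p = 0.00119, limma), SHT, the spermidine hydroxycinnamoyl transferase of the tapetum, -3.56 ± 0.42 (adjusted p = 0.00153), and the tapetal receptor kinase EMS1 -1.35 ± 0.03 (SD, n = 4 each, adjusted p = 0.00232). The remaining one, SPL, which starts sporogenous cell formation, had -0.22 ± 0.10 and did not pass (adjusted p = 0.170). In the pollen list 1 of 2 measured genes fell (of 7 listed), SWEET8, a sugar transporter of the anther, with -4.68 ± 0.86 (adjusted p = 0.00318). TUA1, the other, had -0.44 ± 0.15 and did not pass (adjusted p = 0.0562). In the carpel and ovule list 2 of 2 fell (of 7 listed), CES, a basic helix-loop-helix factor, with -4.99 ± 0.77 (adjusted p = 0.00219) and INO, an ovule integument factor, with -1.52 ± 0.47 (adjusted p = 0.0155). In the nectary and floral terpene list 3 of 3 fell (of 6 listed), with a median of -3.50. They were AT3G25810 (adjusted p = 0.000903), SWEET9, the nectary sugar transporter (adjusted p = 0.00194), and AT5G44630 (adjusted p = 0.00892). None of the 4 listed petal and epidermis genes was measured alone. The part of lost organs in the UF3GT result was not tested, and the anther genes set the sign of this reading.

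The genes most like each member were found by the Euclidean distance of the 4 deposited ratios, over 531 other genes with a symbol and values on all arrays. Nearest to UF3GT were GH9B11, a glycosyl hydrolase (distance 0.59), PUB15, a U-box protein (0.67), the urease gene URE (0.80), the serine carboxypeptidase-like SCPL43 (0.94) and ATA20 (0.97). GH9B11, for example, had -2.93, 3.13, 4.42 and -2.42 on arrays 1 to 4, with the same high array 3 as UF3GT. Nearest to CHIL were the subtilase gene SBT1.3 (0.33), the IQ-domain gene iqd33 (0.40), CPI1, the cycloeucalenol isomerase of sterol synthesis (0.42), the CLE peptide gene CLE27 (0.45) and XERICO (0.48). SBT1.3 had 0.74, -1.05, -0.32 and 0.71, so that array 3 carried its smallest ratio, as for CHIL. The distances are descriptive and rest on 4 arrays.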

How the data were processed

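Per the labels, the authors processed and normalized the arrays as in a cited publication, and the steps are not given there. The deposited values are log2 ratios, 1 per feature and array. The scale was read from the values, which end at plus and minus 6.64, the log2 of 100. Numerator channel, turning of swapped arrays and centring stay unknown (array medians 0.16, -0.14, -0.11 and 0.13).

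Empty (424) and other control features (35) were left out. Of 26474 probes, 5784 had 1 gene, 7497 several and 13193 none in the platform annotation, and 5756 of the first matched a locus of RefSeq TAIR10.1. Probes of 1 gene were averaged, giving 26133 features. Those with at least 3 values were tested against 0 with limma 3.58.1 in R 4.3.3 (lmFit, eBayes, two-sided, Benjamini-Hochberg adjustment at 0.05), which was tested on simulated data.

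The members, lists and alternatives were chosen with earlier results of these data known. Flavonoid-related list genes were all named, and at most 3 of each marker list by smallest p, with SPL added afterwards. The 5 nearest genes were named by distance. Glycosyltransferases were gathered, and shared probes described, after values were seen, and the scalings tried on them were chosen then too. Scanner signals were not used here. The number of arrays limits the precision.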

Additional observations from a re-analysis of the deposited data

Results flagged for a closer look

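Of 55 genes and probes checked with arrays 2 and 3 turned, 5 had 1 array far from the other 3, judged by the gap to the nearest array over the whole range (above Dixon's 95% critical value, which chance exceeds in about 1 in 20 sets). UF3GT and CHIL were not among them. The ratio was 0.840 for AT5G44630, 0.990 for iqd33, 0.884 for CLE27, 0.836 for UGT71C5 and 0.881 for UGT73C2. In UGT73C2 array 3 had -1.85, against 0.94, 1.12 and 0.77 on arrays 1, 2 and 4, and in UGT71C5 array 4 had -0.26, against 0.12, 0.19 and 0.15 on arrays 1 to 3. The mean of UGT71C5 changed sign after centring, to -0.085.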

How the results depend on the processing

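With arrays 2 and 3 turned, UF3GT and CHIL kept their signs under all 14 alternatives. The dye term among them was built from the labelled channel order, which this reading does not follow. CHIL lost its call after centring (0.64), centring with scaling (0.63), quantile normalization (0.84), with a dye term (0.77) and with arrays 1 and 2 and arrays 3 and 4 averaged (0.77), and ranged from 0.65 to 0.91 without single arrays. UF3GT ranged from -3.20 to -2.66 without single arrays, and lost its call without array 2. UF3GT minus CHIL ranged from -4.0 to -3.57 without single arrays, where the smallest exact p is 0.25. The 4539 calls in this reading became 1749 with the dye term, 6909 with a random block and 809 with averaged pairs, and 1084 to 2096 without single arrays. Lower and higher calls were 2392 and 2147, against 2670 and 887 after centring and 2691 and 998 after centring and scaling. As deposited, CHIL changed sign after quantile normalization (-0.0023) and ranged from -0.29 to 0.42 without single arrays, and UF3GT from -0.61 to 1.56. The 59 calls became 14 after scaling, 17 with the dye term, 20 with values on all 4 arrays and 0 by limma with values at the bounds missing (392 at an unadjusted p under 0.05), and 18 to 184 without single arrays. Turned by the labels, without single arrays CHIL ranged from -0.24 to 0.47, UF3GT from -1.05 to 1.31 and the calls from 0 to 46. The cause of these shifts was not tested. Each array already pairs agamous with wild-type RNA in its ratios. No further pairing of arrays was possible because there is 1 group of arrays, so no replicate numbers are shared between groups. The random block and the averages above join arrays within that group.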
